A study of Mus musculus with 2 samples.

Results

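The genes described here move newly made proteins into the endoplasmic reticulum (ER), attach their first sugars and send them on to the Golgi. The set was chosen by symbol, as 40 named genes of ER translocation, signal peptide cleavage, N-glycosylation and vesicle transport between ER and Golgi, and all 40 were found among the 23288 genes measured. They fall into 7 groups by role, with 10 translocon genes, 3 of the signal peptidase, 6 of the oligosaccharyltransferase, 10 of the COPII coat, 3 cargo receptors, 3 KDEL receptors and 5 of the COPI coat. RNA came from splenic B cells of chimeric mice made with fetal liver, in which donor fetal liver cells rebuild the blood, on a B6:129 background crossed back to B6. Cells of the Nedd4+/+ and the Nedd4-/- genotype were kept for 72 hours with LPS, a bacterial product that activates B cells, and the cytokine IL4, a mixture used to bring about switching to IgG1, and their RNA was sequenced after ribosomal RNA had been removed. Each genotype had 1 library. The sources used here do not give the share of host cells left in such chimeras, the number of animals or the allele behind the deletion. Nedd4 encodes a ubiquitin ligase.

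Proteins bound for the cell surface or for secretion enter the ER through the Sec61 channel while they are being made. Signal peptidase removes the leader sequence and oligosaccharyltransferase (OST) transfers a preassembled glycan to asparagines. COPII-coated vesicles carry folded cargo to the Golgi, and COPI-coated vesicles return escaped residents and receptors. B cells enlarge this apparatus when they turn into antibody-secreting plasmablasts, and the transcription factor XBP1 is known as a driver of many of its genes.

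Levels are in RPKM, which counts reads by transcript length and library size, so levels of different genes can be compared. The recovered depth was 8.40 gigabases for Nedd4+/+ and 6.17 gigabases for Nedd4-/-, of which 32.9% and 24.6% lay on transcripts of known length. The part of this lower transcript share in the values below was not tested. Nedd4 stood at 7.59 and 1.95 RPKM, so the Nedd4-/- library held 25.7% of the Nedd4+/+ level. Of 7 B cell markers, 6 had a mean of at least 1 RPKM, with Cd79b, a chain of the B cell receptor, at 183 and 155.3 RPKM and the 7 summing to 444 and 348 RPKM. Relative to the median of all genes, 3 of the 6 were lower and 3 higher, from Cd22, an inhibitory receptor, at 49.1 and 26.8 RPKM to Fcer2a, the low-affinity IgE receptor, at 10.99 and 13.5 RPKM. All 5 T cell markers stood under 1 RPKM in both libraries (summed 0.503 and 1.33 RPKM), and the 6 myeloid markers summed to 1.68 and 3.05 RPKM. Xist stood at 23.7 RPKM for Nedd4+/+ and 0.0958 RPKM for Nedd4-/-, while the 4 Y-linked genes measured stood in the latter at 323% to 403% of their Nedd4+/+ level, so sex-linked content differed between the same libraries. With 1 library per genotype no difference has a replicate check, no test was made, and genotype, sex-linked content and culture cannot be told apart. Intervals below are exact 95% Clopper-Pearson intervals of recovered read pairs and cover counting error only.

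Most of the 40 genes were lower in the Nedd4-/- library by more than the median of all genes. As deposited, 39 had a lower level in the Nedd4-/- library and 1, Sec24b, did not, but 92.7% of all genes compared were also lower, so this count is near the background. Their summed level was 1347 RPKM for Nedd4+/+ and 801 RPKM for Nedd4-/-, or 59.5%, and the median gene of the set stood at 62.1% of its Nedd4+/+ level. The median over 9405 genes with a mean of at least 1 RPKM was 76.4%, with quartiles of 68.4% and 85.4%. These 9405 are the genes called tested below, which means compared and carries no statistical test. Because most genes read lower in the Nedd4-/- library, a gene is described below by its relative log2 ratio, the log2 ratio after adding 1 RPKM minus the median of all genes tested, which was -0.31. The set had a median relative log2 ratio of -0.34, against quartiles of -0.14 and 0.14 for all genes tested.

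Of the 40 genes, 35 lay below the median of all genes, where 50% of the genes tested lie by construction. At a relative log2 ratio of -0.5 or lower stood 10 of them, compared with 3.37% of all genes tested, and none reached 0.5 or higher, where 1.88% of all genes lay. The 10 were Lman1, Sec61a1, Sec24d, Rpn1, Stt3a, Ssr2, Ddost, Spcs2, Copa and Kdelr2. Just inside this threshold was Kdelr2 at -0.50, and just outside it Copb2 at -0.48. Without the median subtracted, 4 genes were at least 2-fold lower on the RPKM + 1 scale (Sec61a1, Rpn1, Sec24d and Lman1), against 1.15% of all genes, and none was 2-fold higher (0.138%). With the median subtracted, none reached -1 (0.223% of all genes) or 1 (0.276%). The counting interval of the level ratio lay wholly below the all-gene median for 29 of the 40 genes, wholly above it for 2 and across it for 9. Intervals were computed for the 40 genes only, so the share of all genes with such intervals is not known. They are narrower for genes with more read pairs.

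**Figure D1:**
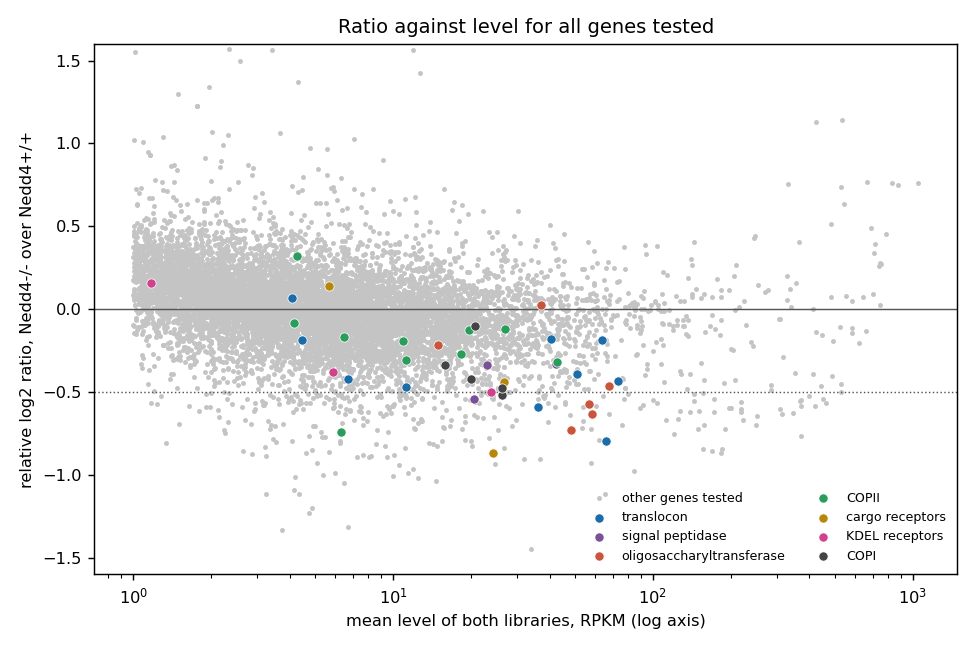
Relative log2 ratio (Nedd4-/- over Nedd4+/+, RPKM + 1, minus the median of all genes) against the mean level in RPKM on a log axis, for all 9405 genes tested in grey and the 40 genes in colour by group. 12 genes lie outside the vertical axis. The solid line is the median of all genes and the dotted line marks -0.5, below which 10 of the 40 genes lie.

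The ratio moved with the level. A split at a mean of 10 RPKM, made after the values were seen, left 30 of the 40 genes at or above it. Of these, 29 were below the all-gene median and 9 at -0.5 or lower, with a median of -0.41, whereas among all 2413 genes of that level 67.1% and 7% did, with a median of -0.09. The 10 genes below 10 RPKM had a median of -0.13. Of these, 6 were below the median of all genes and 1, Sec24d, at -0.5 or lower. Among all genes tested, at any level, 50% and 3.37% lay there. A share for genes below 10 RPKM alone was not computed. When each gene was set against those nearest to it in level, the set's median was -0.25 and 5 genes lay at -0.5 or lower, where 2.64% of all genes did under the same centring.

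**Figure D2:**
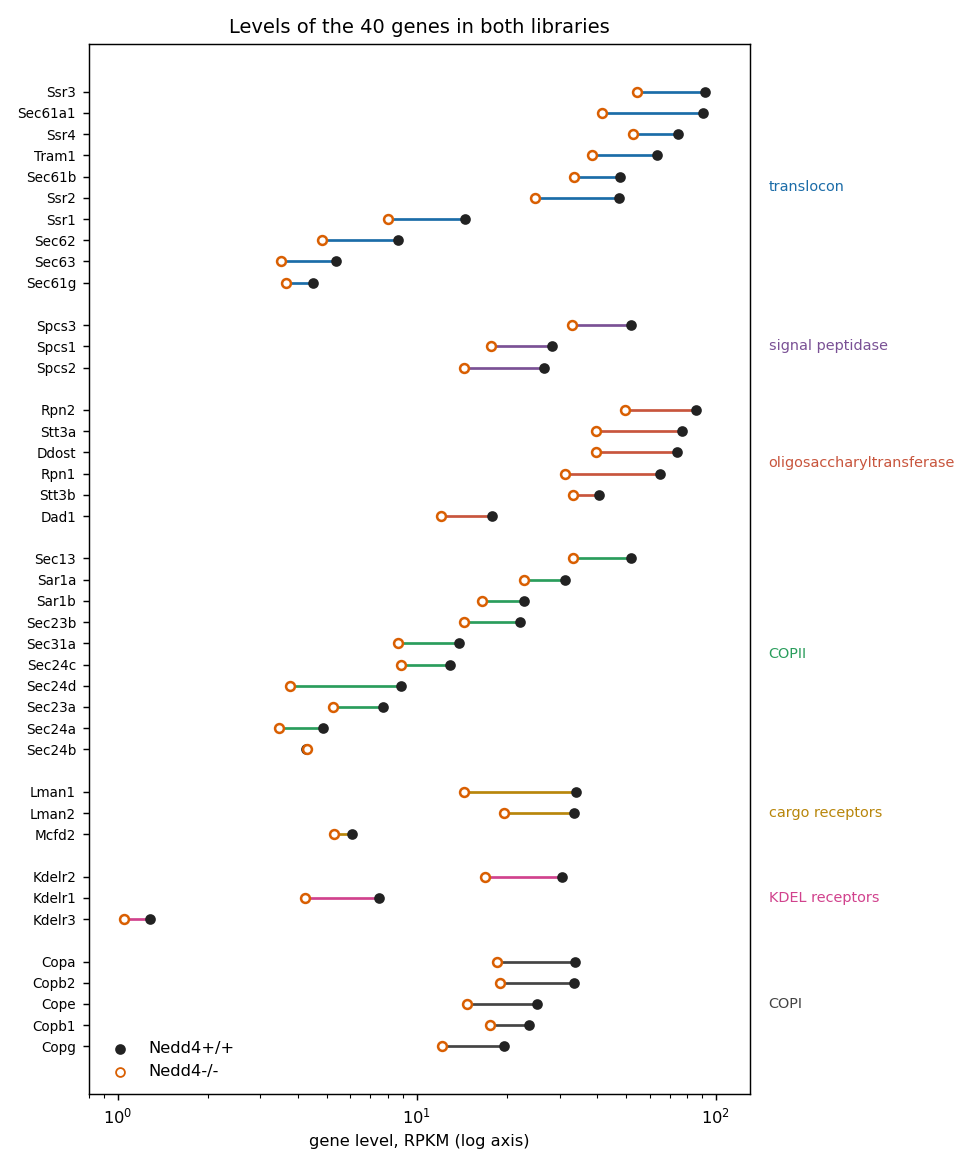
Level of each of the 40 genes in RPKM on a log axis, with the Nedd4+/+ library as filled and the Nedd4-/- library as open points, ordered by Nedd4+/+ level within each group. Ssr3, Sec61a1 and Rpn2 are the highest in the Nedd4+/+ library and Kdelr3 the lowest, and the points of Sec24b coincide.

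Markers of plasmablasts were lower beside these genes. Of 8, 7 were tested and all 7 lay below the median of all genes, 4 of them at -0.5 or lower. Of all genes tested, 50% and 3.37% lay there. Xbp1 is on this list and is counted again among the regulators below. The list summed to 638 RPKM for Nedd4+/+ and 343 RPKM for Nedd4-/-. Igj, the joining chain of polymeric antibody, stood at 216 and 96.4 RPKM, and Prdm1, the transcription factor that directs plasma cell differentiation, at 7.97 and 3.78 RPKM. Sdc1, the plasma cell surface proteoglycan, stood at 2.88 and 1.75 RPKM, while Tnfrsf17, the BCMA receptor, was at 0.288 and 0.397 RPKM. In RNA from a whole culture, fewer cells of a type and less RNA per cell cannot be told apart, and the part of plasmablast content in the values of the 40 genes was not tested.

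Regulators of ER capacity were measured in the same libraries. Xbp1 stood at 132 and 83.8 RPKM, a relative log2 ratio of -0.33. Atf6, the ER membrane-bound factor released under folding stress, stood at 13.1 and 7.65 RPKM (-0.39), and its relative Atf6b at 5.397 and 4.26 RPKM (0.03). Ern1, the kinase and RNase that splices Xbp1 RNA, stood at 4.59 and 2.71 RPKM (-0.28). Of the 7 regulators, 6 were below the all-gene median (50% of all genes tested) and none at -0.5 or lower (3.37%). The levels do not separate spliced from unspliced Xbp1 RNA.

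Promoters of the set were searched for binding sequences of ER stress factors, since some genes of this route are known as targets of XBP1 or ATF6. RefSeq promoters, 250 bases before to 50 after a start in build GRCm38.p6, were matched for 34 of the 40 genes (not for Sec61a1, Tram1, Ssr2, Spcs3, Lman1 and Kdelr2). The UPRE sequence TGACGTGG was present on either strand in 5 of the 34 (14.7%), compared with 0.714% of 27025 genes and 1.10% of 7471 genes that were tested here. The shorter XBP1 core GCCACGT, which overlaps the UPRE where a C follows it, was present in 13 (38.2%), compared with 2.95% of all genes and 4.87% of those tested. In 3 genes, Kdelr3, Sec23a and Sec24d, both were present. The ERSE sequence, CCAAT and CCACG with 9 bases between them, was in none of the 34 and in 0.137% of all genes, and ERSE-II, ATTGG and CCACG with 1 base between them, in none and 0.0444%. Among the 34 matched genes, the ranges of ratios with and without any of these 4 sequences overlapped. The unmatched genes did not enter this comparison, among them Lman1 (-0.87) and Sec61a1 (-0.79), with the lowest relative log2 ratios of the 40. Without 1 RPKM added, Sec24d, which was matched, stood as low as Lman1, at 42.3% and 42.4% of the Nedd4+/+ level. The 15 with a match had a median relative log2 ratio of -0.31 and ran from -0.74 to 0.15. The 19 without had a median of -0.38 and ran from -0.73 to 0.32. At -0.5 or lower stood 1 of the 15 and 5 of the 19, compared with 3.37% of all genes tested. A relation of the sequences to the ratio was not tested. A match describes the letters in the window and is no evidence of binding.

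The 5 promoters with a UPRE are shown 5′ to 3′ on the strand of the gene, with the UPRE or its reverse complement in capitals. They belong to both inner coat families of COPII, to both beta subunits of COPI and to a KDEL receptor. The ratios of these genes ran from Sec24d (-0.74) to Kdelr3 (0.15).
Sec24d, chr3:123267246-123267545, plus strand: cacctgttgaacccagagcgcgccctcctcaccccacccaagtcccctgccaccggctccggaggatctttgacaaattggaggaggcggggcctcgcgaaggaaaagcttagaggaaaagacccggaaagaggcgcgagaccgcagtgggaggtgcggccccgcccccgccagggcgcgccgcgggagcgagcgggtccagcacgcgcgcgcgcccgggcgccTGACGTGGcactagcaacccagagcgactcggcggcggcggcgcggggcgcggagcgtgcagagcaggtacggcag
Sec23a, chr12:59011968-59012267, minus strand: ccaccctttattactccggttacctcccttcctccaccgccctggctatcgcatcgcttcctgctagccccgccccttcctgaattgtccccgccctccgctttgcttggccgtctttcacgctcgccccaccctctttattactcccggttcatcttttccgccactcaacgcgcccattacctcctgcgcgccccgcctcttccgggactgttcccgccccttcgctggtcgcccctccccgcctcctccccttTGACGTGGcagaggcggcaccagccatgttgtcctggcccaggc
Copb1, chr7:114254631-114254930, minus strand: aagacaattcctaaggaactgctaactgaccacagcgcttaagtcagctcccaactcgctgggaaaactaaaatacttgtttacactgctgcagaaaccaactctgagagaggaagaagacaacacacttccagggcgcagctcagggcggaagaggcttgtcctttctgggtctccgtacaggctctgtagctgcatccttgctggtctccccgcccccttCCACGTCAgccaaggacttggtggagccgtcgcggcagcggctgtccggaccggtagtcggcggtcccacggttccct
Copb2, chr9:98563481-98563780, plus strand: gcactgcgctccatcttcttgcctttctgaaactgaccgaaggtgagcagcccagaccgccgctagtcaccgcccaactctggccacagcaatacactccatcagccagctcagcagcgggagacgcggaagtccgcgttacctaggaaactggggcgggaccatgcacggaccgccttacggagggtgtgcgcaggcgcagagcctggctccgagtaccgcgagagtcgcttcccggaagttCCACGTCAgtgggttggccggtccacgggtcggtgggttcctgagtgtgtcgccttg
Kdelr3, chr15:79516158-79516457, plus strand: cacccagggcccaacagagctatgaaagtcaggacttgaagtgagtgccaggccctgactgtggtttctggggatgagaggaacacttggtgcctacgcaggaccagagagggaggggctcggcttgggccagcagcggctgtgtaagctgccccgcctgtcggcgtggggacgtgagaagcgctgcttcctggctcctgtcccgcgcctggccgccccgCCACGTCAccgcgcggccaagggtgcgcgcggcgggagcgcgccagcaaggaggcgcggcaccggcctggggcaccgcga
In Sec24d the sequence lay 26 to 19 bases before the start, in Copb1 28 to 21 and in Kdelr3 30 to 23. In Copb2 it ran from 7 bases before the start to base 1 of the transcript, and in Sec23a it lay in the transcript at bases 7 to 14. Copb2 stood at 33.5 and 18.9 RPKM (-0.48) and Copb1, its partner in the COPI coat, at 23.7 and 17.6 RPKM (-0.10), and both carried the same 8 letters near the start, in the same orientation to the gene.

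The translocon genes were lower in the Nedd4-/- library with a median relative log2 ratio of -0.41, and 9 of 10 lay below the median of all genes. Sec61a1, the pore-forming subunit of the channel, had the lowest ratio of the group. It stood at 90.6 RPKM for Nedd4+/+ and 41.5 RPKM for Nedd4-/-, or 45.8% (interval 44.2% to 47.5%), a relative log2 ratio of -0.79. An unnamed gene model on the opposite strand overlaps 17.3% of its exon bases in GENCODE M21, and without strand their reads cannot be told apart. The small subunits of the channel were closer to other genes. Sec61b stood at 47.7 and 33.6 RPKM, or 70.5% (63.7% to 78.1%), and Sec61g at 4.51 and 3.65 RPKM, or 80.9% (61.0% to 107%). Sec61g rested on 141 and 83.9 read pairs, the interval includes the median of all genes, and its level was far below that of Sec61a1 in both libraries.

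Sec62 and Sec63, which help proteins enter after their synthesis is complete, were low in both libraries. Sec62 stood at 8.66 and 4.80 RPKM, or 55.5% (50.3% to 61.1%), with 12.8% of its exon bases overlapped by a gene on the opposite strand. Sec63 stood at 5.37 and 3.52 RPKM, or 65.5% (59.5% to 71.9%). Tram1, a membrane protein beside the channel, was much more abundant, at 63.3 and 38.5 RPKM, or 60.8% (58.4% to 63.3%).

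The 4 genes of the translocon-associated protein complex (TRAP), which assists entry and glycosylation of some substrates, had a median relative log2 ratio of -0.45 and all lay below the median of all genes. Ssr3, the gamma subunit, was the most abundant of the 40 genes, at 92.2 and 54.5 RPKM, or 59.1% (57.2% to 61.1%). Ssr2, the beta subunit, stood at 47.4 and 24.8 RPKM, or 52.4% (48.5% to 56.6%), and Ssr1, the alpha subunit, at 14.5 and 8.003 RPKM, or 55.1% (52.5% to 57.9%). Ssr4, the delta subunit, lies on the X chromosome and stood at 74.9 and 52.8 RPKM, or 70.5% (65.7% to 75.5%). The Ssr4 interval lay above those of the other 3 subunits.

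All 3 signal peptidase subunits stood below the median of all genes, Spcs2 further than the others. Spcs3, a subunit needed for cleavage, stood at 52.1 and 32.9 RPKM, or 63.2% (60.7% to 65.8%). Spcs1, an accessory subunit, stood at 28.4 and 17.7 RPKM, or 62.3% (56.2% to 69.0%), and 24.5% of its exon bases are overlapped by Glt8d1 on the opposite strand. Spcs2 stood at 26.7 and 14.3 RPKM, or 53.6% (50.2% to 57.3%). The Spcs2 interval lay below that of Spcs3 and overlapped that of Spcs1. The group had a median relative log2 ratio of -0.34. The catalytic subunits of the complex were measured as well. Sec11c stood at 156 and 96.7 RPKM (-0.38) and Sec11a at 29.8 and 20.5 RPKM (-0.21).

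Among the 7 groups OST had the lowest median relative log2 ratio, -0.52, and its members fell on separate sides of the median of all genes. Rpn1, the ribophorin subunit that binds nascent chains, stood at 65.3 and 31.2 RPKM, or 47.8% (46.0% to 49.7%). Ddost, the subunit also known as OST48, stood at 74.1 and 39.7 RPKM, or 53.5% (51.1% to 56.0%), and Rpn2 at 86.0 and 49.8 RPKM, or 57.8% (55.8% to 59.98%). Dad1, a small subunit first known as a defender against cell death, stood at 17.8 and 12.0 RPKM, or 67.4% (58.8% to 77.1%). The catalytic subunits, alternative centres of separate OST complexes, differed from each other. Stt3a, which acts on chains as they enter the ER, stood at 77.1 and 39.6 RPKM, or 51.4% (49.99% to 52.8%). Stt3b, which acts after entry on sites that were skipped, stood at 40.7 and 33.2 RPKM, or 81.6% (78.5% to 84.8%), a relative log2 ratio of 0.03.

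The ratio of Stt3a to Stt3b within a library does not depend on how the libraries were scaled. It was 1.89 for Nedd4+/+ and 1.19 for Nedd4-/-, a log2 difference of -0.67 with an exact odds ratio interval of -0.74 to -0.60. Accessory subunits of the separate OST forms, named here after their values were seen where they are not the lowest or highest of their list, did not divide in the same way. Krtcap2 and Ostc, which belong to the STT3A form, stood at 35.8 and 18.7 RPKM (-0.59) and at 94.7 and 56.7 RPKM (-0.42). Of the alternative oxidoreductase subunits of the STT3B form, Magt1 stood at 27.1 and 15.2 RPKM (-0.48) and Tusc3 at 6.85 and 5.36 RPKM (0.01).

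**Figure D3:**
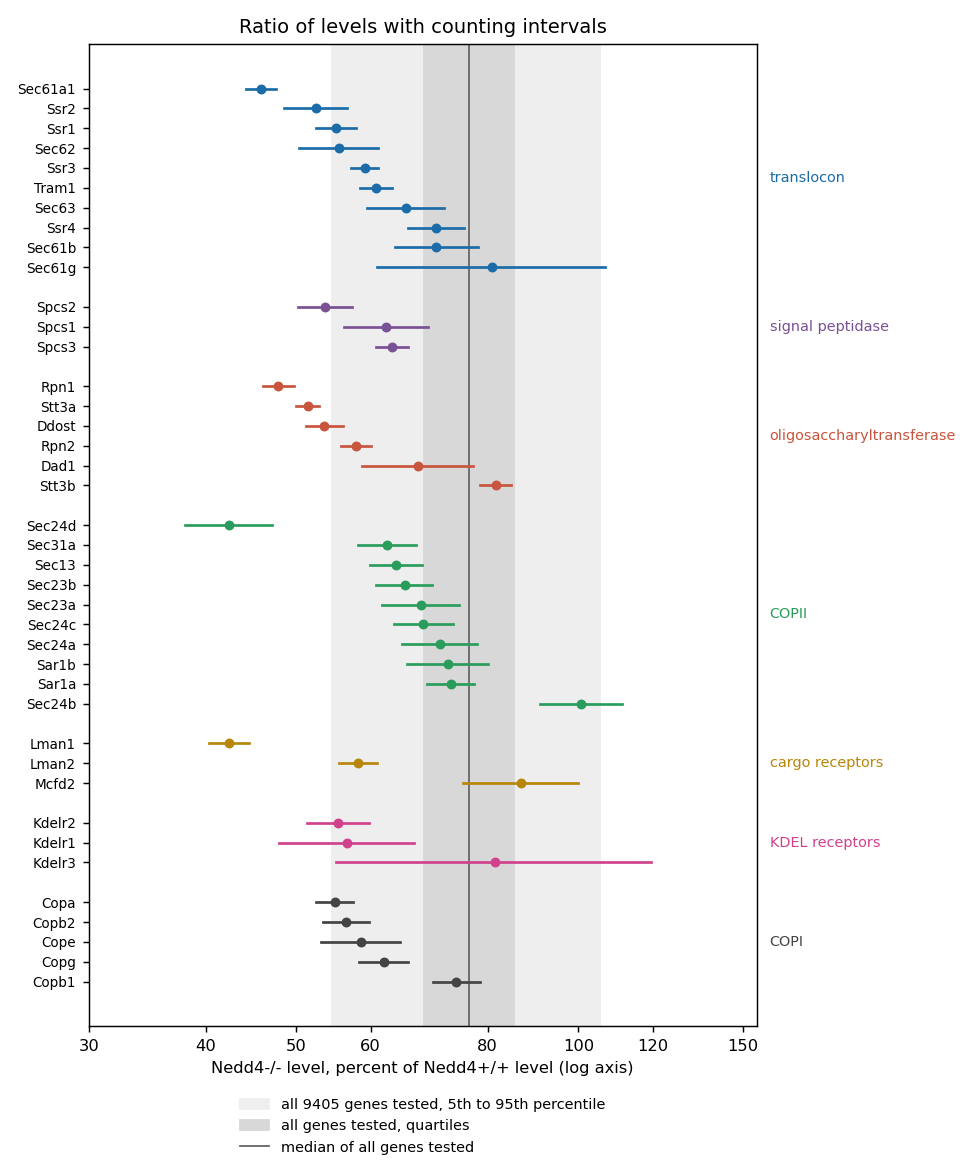
Nedd4-/- level as a percent of the Nedd4+/+ level on a log axis for each of the 40 genes, with exact 95% counting intervals as lines. The grey bands are the quartiles and the 5th to 95th percentile of all 9405 genes tested and the vertical line is their median, 76.4%. Sec24d and Lman1 lie furthest to the left and Sec24b furthest to the right.

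COPII genes lay closer to other genes than any other group, with a median relative log2 ratio of -0.18, although 9 of 10 were below the median of all genes. The COPII median was -0.07 when centred on the ratio of bases held by transcripts and -0.12 against genes nearest in level. The GTPases that start coat assembly were little below it. Sar1a stood at 31.3 and 22.9 RPKM, or 73.1% (69.0% to 77.4%), and Sar1b at 22.8 and 16.5 RPKM, or 72.5% (65.6% to 80.1%). The outer coat subunits, which form the cage, stood lower. Sec13, which also serves in the nuclear pore, stood at 52.2 and 33.3 RPKM, or 63.9% (59.9% to 68.1%), and Sec31a at 13.8 and 8.63 RPKM, or 62.5% (58.2% to 67.1%).

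The inner coat binds the GTPase through Sec23 and cargo through Sec24. Sec23b stood at 22.1 and 14.4 RPKM, or 65.2% (60.9% to 69.8%), and Sec23a at 7.70 and 5.23 RPKM, or 67.9% (61.7% to 74.6%). The transcript that carries the Sec23b value is a noncoding RefSeq form, and its length was taken from another transcript of the gene. The Sec24 cargo adaptors held the highest and the lowest ratio of the group. Sec24d stood at 8.87 and 3.75 RPKM, or 42.3% (37.99% to 47.1%), and Sec24b at 4.25 and 4.28 RPKM, or 100.7% (91.0% to 111%). Sec24c stood at 12.9 and 8.83 RPKM, or 68.3% (63.5% to 73.4%), and Sec24a at 4.86 and 3.46 RPKM, or 71.1% (64.8% to 78.0%). The interval of Sec24d lay below, and that of Sec24b above, those of the other Sec24 genes.

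The makeup of the Sec24 family differed accordingly between the libraries. Sec24a and Sec24b resemble each other in sequence, as do Sec24c and Sec24d, and the former pair is known to bind some cargo signals that the latter does not. Sec24d made up 28.7% of the summed Sec24 level for Nedd4+/+ and 18.5% for Nedd4-/-, Sec24b 13.7% and 21.1%. Sec24c made up 41.8% and 43.5%, and Sec24a 15.7% and 17.0%. The ratio of Sec24a plus Sec24b to Sec24c plus Sec24d was 0.418 and 0.615, a log2 difference of 0.56 with an approximate counting interval of 0.43 to 0.69. The summed level of the family was 30.9 and 20.3 RPKM.

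The other 3 paralog ratios differed by less than counting error. Sec23a over Sec23b was 0.348 and 0.362, a log2 difference of 0.06 (interval -0.11 to 0.23). Sar1a over Sar1b was 1.37 and 1.38, a log2 difference of 0.01 (-0.16 to 0.18). Kdelr1 over Kdelr2 was 0.244 and 0.249, a log2 difference of 0.03 (-0.24 to 0.29). These intervals leave room for differences of the sizes they span.

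**Figure D4:**
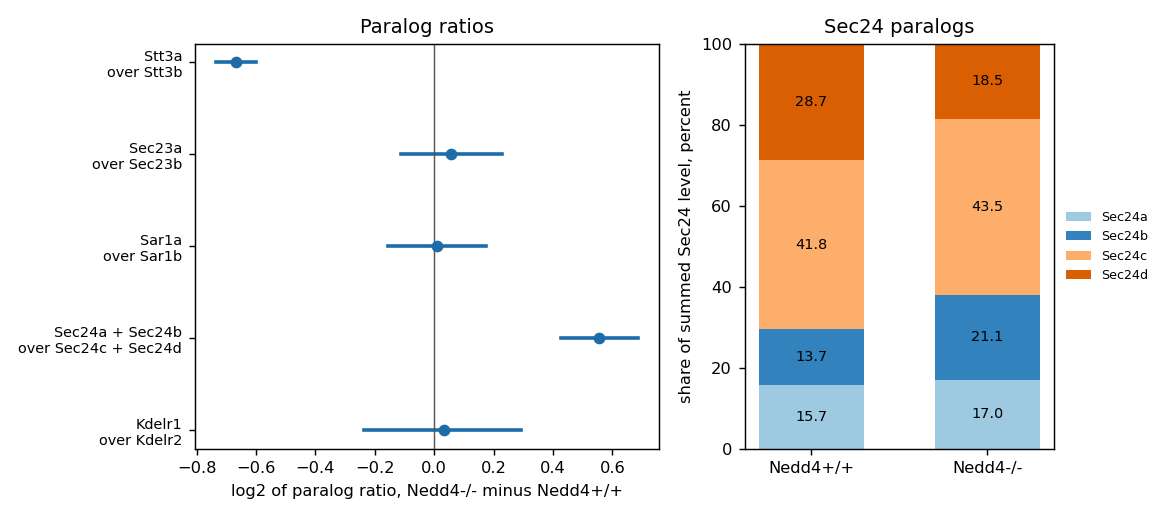
Left, log2 of each of the 5 paralog ratios in the Nedd4-/- library minus that in the Nedd4+/+ library, with 95% counting intervals as lines. Right, share of each Sec24 paralog in the summed Sec24 level (RPKM) of each library, in percent. The intervals for Stt3a over Stt3b and for the Sec24 pairs do not include 0, and those of the other 3 ratios do.

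The cargo receptors differed among themselves. Lman1, also called ERGIC-53, is a lectin that cycles between ER and Golgi and carries glycoproteins. It stood at 33.9 and 14.4 RPKM, or 42.4% (40.3% to 44.5%). Its relative log2 ratio of -0.87 was the lowest of the 40 genes. Mcfd2, the soluble protein that acts with Lman1 in the export of clotting factors, stood at 6.08 and 5.28 RPKM, or 86.8% (75.3% to 99.8%), so the partners of this receptor had intervals that did not overlap. Lman2, the related lectin VIP36, stood at 33.7 and 19.6 RPKM, or 58.2% (55.5% to 60.9%).

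KDEL receptors return escaped ER residents from the Golgi. Kdelr2 was the main form in both libraries, at 30.6 and 17.0 RPKM, or 55.4% (51.3% to 59.8%). Kdelr1 stood at 7.47 and 4.23 RPKM, or 56.6% (47.9% to 66.7%). Kdelr3 stood at 1.29 and 1.05 RPKM, or 81.6% (55.1% to 119%), on 75.4 and 45.1 read pairs, so that its interval includes the values of both relatives.

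All 5 COPI genes lay below the median of all genes, with a median relative log2 ratio of -0.42. Copa, the alpha subunit, stood at 33.8 and 18.6 RPKM, or 54.9% (52.5% to 57.5%), and Copb2, the beta-prime subunit that joins it in the outer part of the coat, at 33.5 and 18.9 RPKM, or 56.5% (53.4% to 59.7%). Cope, the epsilon subunit of the same part, stood at 25.1 and 14.7 RPKM, or 58.6% (53.1% to 64.6%). These 3 subunits had overlapping intervals. Of the inner part, Copg, a gamma subunit, stood at 19.6 and 12.2 RPKM, or 62.0% (58.3% to 65.9%), and Copb1, the beta subunit, at 23.7 and 17.6 RPKM, or 74.1% (69.9% to 78.5%). The interval of Copb1 lay above those of the other 4 subunits.

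Side by side, the group medians of the relative log2 ratio were -0.52 for OST, -0.44 for cargo receptors, -0.42 for COPI, -0.41 for the translocon, -0.38 for KDEL receptors, -0.34 for signal peptidase and -0.18 for COPII. The order between OST and COPII depended on the scale. With 0.1 RPKM added, KDEL receptors had -0.43, cargo receptors -0.40, COPI -0.39 and the translocon -0.36. The ranges overlapped, as the COPII genes ran from -0.74 to 0.32 and the OST genes from -0.73 to 0.03. Every group median was negative under each scaling tried. As deposited, however, 92.7% of all genes tested were negative as well. Without a minimum level the centre was 0.02, so that scale was close to the deposited values. Negative medians under these settings say little about the groups. No test of one group against another was made, since genes of a complex are not replicates.

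Other genes of the same route, which are not among the 40, had a median nearer to that of all genes. Their level was lower too, with a median for Nedd4+/+ of 10.6 RPKM against 27.6 RPKM for the 40. The part of level in this difference was not tested. Of 102 listed, 96 were tested, with a median of -0.19. Of these, 72 were below the all-gene median (50% of all genes tested), 9 at -0.5 or lower (3.37%) and none at 0.5 or higher (1.88%). The signal recognition particle and its receptor, which bring ribosomes to the channel, had a median of -0.34, with 9 of 10 genes below the median of all genes. Srpr, the receptor's alpha subunit, stood at 12.6 and 6.29 RPKM (-0.59) and Srp14, which arrests elongation, at 26.03 and 22.3 RPKM (0.10). Srp54a, Srp54b and Srp54c are near-identical copies whose reads may be divided among them.

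Enzymes that build the glycan before its transfer were nearer to other genes than those that trim it, but their levels differed as well. The median Nedd4+/+ level was 4.96 RPKM for the tested precursor genes and 19.3 RPKM for the trimming genes. The part of level in this difference was not tested. Of 29 tested precursor genes, 18 were below the all-gene median (50% of all genes tested) and 2 at -0.5 or lower (3.37%). Their median was -0.13. Gmppa, a regulator of GDP-mannose synthesis, stood at 9.42 and 4.75 RPKM (-0.55) and Pmm2, a phosphomannomutase, at 7.01 and 5.97 RPKM (0.11). All 4 trimming genes lay below, with a median of -0.41, from Ganab, the catalytic subunit of glucosidase II, at 36.8 and 19.2 RPKM (-0.59) to Mogs, glucosidase I, at 17.4 and 11.3 RPKM (-0.26). The 5 other OST genes had a median of -0.42, with 4 below. The 4 other translocon and signal peptidase genes had a median of -0.05, with 2 below, as for 50% of all genes tested.

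In vesicle transport, all 4 tested COPII regulators lay below the median of all genes, from Sec16a, the scaffold of exit sites, at 10.8 and 6.28 RPKM (-0.38) to Preb, the exchange factor for Sar1, at 5.79 and 4.28 RPKM (-0.05). For this and the counts that follow, 50% of all genes tested lay below that median and 3.37% at -0.5 or lower. Of 14 cargo adaptors 11 lay below, with a median of -0.16. Among those of at least 5 RPKM, Surf4, a receptor for soluble cargo, was lowest at 48.8 and 26.9 RPKM (-0.52) and Tmed4 highest at 5.95 and 4.83 RPKM (0.06). Of 11 further COPI and ARF genes 7 lay below, with a median of -0.28. Arfgap3, which triggers GTP hydrolysis by ARF, stood at 7.98 and 3.78 RPKM (-0.60), whereas Copg2, the alternative gamma subunit, stood at 7.01 and 6.05 RPKM (0.13). Of 15 tethers and SNAREs 13 lay below and none at -0.5 or lower, with a median of -0.16. They ran from Stx5a, a Golgi SNARE, at 13.9 and 8.62 RPKM (-0.32) to Rab1b, a GTPase of this step, at 12.5 and 10.6 RPKM (0.09) among genes of at least 5 RPKM.

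In the kb before each gene, where reads of promoter-proximal and antisense transcription fall, the set had a median ratio near that of all windows. The relation of window ratios to gene ratios was not tested. Of the 40 windows, 31 had a mean of at least 0.2 RPKM, and 19 of these were higher and 12 lower in the Nedd4-/- library, where 71.2% of 11837 windows tested genome-wide were higher. At least 2-fold higher, with 0.1 RPKM added, were 5 windows, compared with 19.8% of all windows, and none was 2-fold lower (0.794%). The median log2 ratio was 0.47 for the set and 0.41 for all windows. The 5 windows lay before Dad1, Tram1, Sec24d, Spcs2 and Sec61a1. By GENCODE M21, exons of another gene lie in those of Dad1 (Abhd4), Spcs2 (Xrra1) and Sec61a1 (an unnamed gene model). Reads of these neighbours cannot be told apart from those of the promoter. No such exons lie in the windows of Tram1 and Sec24d. The Dad1 window stood at 0.218 and 0.754 RPKM, or 9.05 and 23.0 read pairs, the Tram1 window at 0.0835 and 0.388 RPKM and the Sec24d window at 0.0922 and 0.357 RPKM.

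The most strongly transcribed windows went the other way. The Cope window stood at 3.01 and 2.15 RPKM, that of Ssr4 at 2.43 and 1.83 RPKM, that of Sec61b at 2.03 and 1.71 RPKM and that of Sec23b at 1.94 and 1.26 RPKM. Exons of a neighbour lie in the first 3 of these by GENCODE M21, Ddx49, Idh3g and Alg2 in turn, and reads of the neighbour cannot be told apart from those of the promoter. Among the 31 windows, the 12 with exons of another gene had a median log2 ratio of 0.21 and the 19 without had 0.52. In a kb, 1 pair of reads is worth 0.0241 RPKM for Nedd4+/+ and 0.0328 RPKM for Nedd4-/-, so windows near the minimum rest on few pairs.

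**Figure D5:**
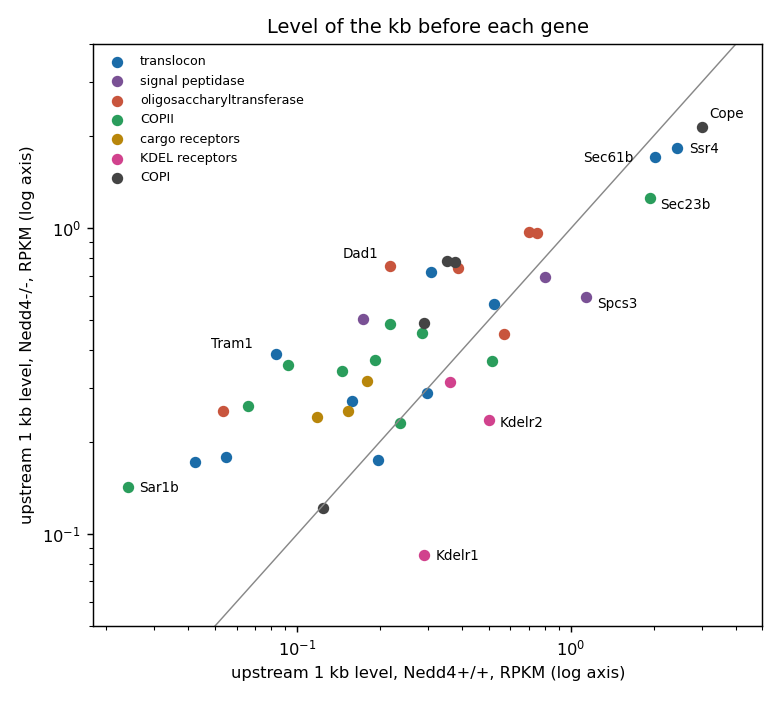
Level of the 1 kb before each of the 40 genes in RPKM, Nedd4+/+ on the horizontal and Nedd4-/- on the vertical axis, both log axes, coloured by group. The line marks equal levels. The 4 highest windows, before Cope, Ssr4, Sec61b and Sec23b, lie below it, and most of the low windows above it.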

How the data were processed

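RNA of 1 Nedd4+/+ and 1 Nedd4-/- library was measured, grouped by title. Per the submitters' processing notes, TopHat, Cufflinks and mm9 were used, with no version or role, and the sources used here do not say how strand or reads with several matches were handled. Per the file headers, each gene has an RPKM value, deposited by the authors for 1 RefSeq transcript. The other deposited column held a ratio, namely upstream kb level over gene RPKM plus 0.0001. Multiplied back, 99.99% of 18656 and 100% of 17714 windows were whole numbers of read bases within 0.05 bases. The modal steps are multiples of a pair of 101-nt reads and gave 8.40 and 6.17 gigabases as depth. Transcripts of known length held 32.9% and 24.6% of the bases. Pairs per gene used GENCODE M21 transcript lengths, by the same accession for 39 of the 40 genes. Without molecular identifiers, read pairs can be copies of 1 molecule.

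The design had assumed a level in the upstream column, so the product was used. Genes with a mean of at least 1 RPKM were compared, with no statistical test, on log2((Nedd4-/- + 1)/(Nedd4+/+ + 1)), a scale that understates differences of low genes. Windows had 0.1 RPKM added and a minimum of 0.2 RPKM. Intervals are exact Clopper-Pearson for level ratios and exact conditional odds ratios for paralogs, with a normal approximation for the summed Sec24 pairs (SciPy 1.17.1, NumPy 2.4.6, pandas 2.3.3). The computation of the relative log2 ratio, centred on the median, was tested on simulated levels with known shifts. That test does not cover the intervals, the upstream levels or the promoter search. Members and lists (the pathway list, cell markers and regulators) were chosen with earlier results of these data known. Of the B cell markers, 1 is not reported here and was left out of their count and sum. All 40 genes are named. From the pathway list the lowest and highest relative ratio per step are named among genes of at least 5 RPKM. Of the pathway genes, 101 of 102 were matched. Alternatives were other centres, pseudocounts, minimum levels and promoter windows. Reference coordinates are GRCm38 and were used only for promoters, neighbours and lengths.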

Additional observations from a re-analysis of the deposited data

How the results depend on the processing

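No paired analysis was possible because each group has 1 library, and for the same reason no library could be left out. The count of 35 of 40 genes below the centre was 39 as deposited, where 92.7% of all genes lay below, 33 when centred on the ratio of bases held by transcripts (30.1% of all genes), 40 without a minimum level (50%) and 33 of the 35 tested at a minimum of 5 RPKM (50%). Of the pathway genes, 72 of 96 lay below, and in the same order 95, 59, 98 of all those matched and 55 of 73. None of the 40 genes reached 0.5 or higher under any. The count of 10 genes at -0.5 or lower was 27 as deposited (19.1% of all genes), 5 when centred on transcript bases (1.71%), 5 when centred on genes nearest in level (2.64%) and 31 without a minimum level (9.01%), where low genes raise the median of all genes. Medians as deposited were -0.65 for the set, -0.72 translocon, -0.65 signal peptidase, -0.83 OST, -0.49 COPII, -0.75 cargo receptors, -0.70 KDEL receptors and -0.73 COPI. Without a minimum they were -0.67, -0.74, -0.68, -0.85, -0.52, -0.77, -0.72 and -0.76 in the same order. Centred on transcript bases, the set had -0.23, translocon -0.30, signal peptidase -0.23, OST -0.41, COPII -0.07, cargo receptors -0.33, KDEL receptors -0.27 and COPI -0.31. Centred on genes nearest in level, OST had -0.43, KDEL receptors -0.35, cargo receptors -0.34, translocon -0.32, COPI -0.32 and signal peptidase -0.25. With a minimum of 5 RPKM, which tested 35 of the 40 genes, OST had -0.45. Centring on genes nearest in transcript length or GC content, added after the data were seen, left 9 genes at -0.5 or lower each (3.52% and 3.25% of all genes).

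Single genes changed side of the centre as follows. As deposited, Sec61g was at -0.25, Stt3b at -0.29, Mcfd2 at -0.17 and Kdelr3 at -0.16. Without a minimum, Sec61g was at -0.27, Stt3b at -0.31, Sec24b at -0.0143, Mcfd2 at -0.20 and Kdelr3 at -0.18. Centred on transcript bases, Sec24a was at 0.0259 and Copb1 at 0.00856, and centred on genes nearest in level Kdelr3 was at -0.0200 and Copb1 at 0.00332. Paralog ratios kept their direction with 1 RPKM added. Upstream, a minimum of 1 RPKM left 4 windows of the set, 0 of them higher, with a median of -0.43, and relative to all windows the median of the set was 0.0579. In the 250 bases before the start, 3 promoters held a UPRE. Depth limits Kdelr3 and Sec61g most.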
